A study of Mus musculus with 16 samples.

Results

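Nucleus pulposus lacking HIF-2α was compared between old and young adult mice. The comparison used 8 of the 16 arrays of the study, 4 arrays titled 14-month cKO against 4 titled 6-month cKO, over the 18732 of 22206 probe sets that carry a platform gene symbol and do not lie on chromosome X or Y. These probe sets stand for 18680 genes. Mice of both cKO groups carried FoxA2Cre and HIF-2αf/f, so that both ages share the transgene and the floxed alleles, and the 8 control arrays came from HIF-2αf/f mice of 6 and of 14 months. Each group had 4 arrays of total RNA from nucleus pulposus dissected from discs. The labels give no treatment, and they state neither the number of discs or mice per array nor the spinal levels taken. The p-values below measure the spread between these arrays.

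The nucleus pulposus is the hydrated core of the intervertebral disc. Its cells descend from the notochord, sit in a matrix of aggrecan far from any vessel, and depend on glycolysis. HIF-2α, encoded by Epas1, is an oxygen-regulated transcription factor subunit that pairs with ARNT, as HIF-1α does. Foxa2 is expressed in the notochord, so a Cre driven from it recombines in notochord descendants, but Foxa2 is also expressed in endoderm and floor plate, and the deletion is present from development on rather than starting in the adult.

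Epas1 stood at 10.41, 9.79, 10.63 and 10.68 on the 4 arrays of 6-month cKO mice and at 12.26, 11.73, 12.37 and 11.68 on the 4 of 14-month cKO mice; these and all levels below are log2 values of the deposited table. The ages did not overlap, and the change was +1.63 (SE 0.50, adjusted p = 0.025 in limma with Benjamini-Hochberg adjustment). The call ended under quantile normalization (adjusted p = 0.06), after scaling every array to one interquartile range (adjusted p = 0.097), without 14-month array 1 or 3, without 6-month array 2, and without 6-month arrays 3 and 4 together. The position of these probes within Epas1 was not analysed here, so the level is no measure of intact HIF-2α transcript. Hif1a, the other HIF-α gene, averaged 14.08 at 6 months and 14.30 at 14 months (change +0.22, SE 0.29, adjusted p = 0.62). The tissue label was checked against its markers. Of 17 nucleus pulposus and notochord genes measured, 13 were above the level of olfactory and vomeronasal receptor probe sets at 14 months, and Krt19, a keratin of these cells, ran from 16.86 to 17.51 over all 8 arrays.

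Several features of the arrays bear on every result. Correlations between arrays of the same age ran from 0.964 to 0.988 and between ages from 0.928 to 0.963, and the first principal component, with 55.1% of the variance, separated the ages. The spread of values was wider at 14 months, with an interquartile range of 3.95 ± 0.087 (SD, n = 4) against 3.56 ± 0.165 (SD, n = 4) at 6 months (two-sided exact permutation p = 0.0286, the smallest this design allows). Probe sets of 1407 olfactory and vomeronasal receptor genes, used here as a guide to the level of genes without a transcript, had a median change of -0.51, with 319 of them called lower and 3 higher; after quantile normalization the median was -0.31 and 171 were lower. Their 90th percentile, the "receptor level" below, was 6.63 at 6 months and 5.83 at 14 months. Of the genes named below, Angptl4, Il1b, Lyz2 and Ngp at 14 months and Col5a1, Grem1, Hlf, Hoxa3, Hoxa6, Ibsp, Igfbp5, Irf9, Mmp14, Psmb8 and Sufu at 6 months averaged below this level, so their log2 changes are fitted values and not measured folds; Basp1, Cfb, Phgdh and Sp7 averaged below it at both ages. By Y-linked genes, each cKO group held 3 male arrays and 1 female array. Arrays 3 and 4 of the 6-month cKO group also carried neutrophil transcripts, described further on.

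Many probe sets of the knockout tissue differed between the 14-month and the 6-month arrays. Of the 18732 probe sets, 4152 (22.2%) passed an adjusted p of 0.05, 2516 (13.4%) higher and 1636 (8.73%) lower at 14 months, and 2216 of them changed by more than 1 log2 unit. Without 14-month cKO array 3 the count was 2764. At 8-fold or more, 36 rose and 41 fell. The median change over all probe sets was -0.05. Shifting the arrays to a common median moved it to 0.08, and 3083 probe sets were then called higher and 1093 lower, so the split between rises and falls depends on the centring. Of the rises, 1951 were above the receptor level at both ages and 480 at 14 months alone. Of the falls, 763 were above it at both ages and 119 at 6 months alone, and 834 calls were above it at neither age. Receptor probe sets made up 319 of the 1636 falls. That is 319 of 1407 receptor probe sets, a larger share than the 8.73% over all probe sets. Part of the falls thus lies in probe sets used as a guide to genes without a transcript. The 4 and 4 arrays did not overlap for 24.9% of probe sets, 14.5% higher and 10.3% lower.

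The largest rise among genes above the receptor level at both ages was that of Nrn1, which encodes neuritin, a membrane-anchored protein that promotes neurite outgrowth. Its levels were 9.99, 8.88, 7.29 and 7.12 at 6 months and 16.09, 14.55, 16.19 and 15.80 at 14 months, a change of +7.34 (SE 0.58, adjusted p = 3.8e-07), or 162-fold. Ndnf, a secreted neurotrophic factor, stood at 10.78, 10.56, 10.24 and 11.43 and then at 17.78, 18.29, 17.66 and 18.07 (+7.20, SE 0.37, adjusted p = 9.4e-10). In both genes every 14-month array lay several log2 units above every 6-month array. Ages without overlap were part of the choice of the 12 largest rises and the 12 largest falls. Abca1, the exporter of cellular cholesterol, went from 7.32, 8.14, 6.04 and 8.0 to 12.47, 11.99, 12.25 and 13.12 (+5.08, SE 0.36, adjusted p = 1.5e-07). Other genes of lipid handling among the 12 largest rises were Mylip (+3.95), a ubiquitin ligase that degrades the LDL receptor, and Pltp (+3.79), the phospholipid transfer protein. Man2b1, a lysosomal mannosidase, rose by 5.04 with a wide 6-month spread, from 6.09 to 11.40. Lbp (+4.66) binds bacterial lipopolysaccharide, Adm (+3.78) encodes adrenomedullin, and Ampd3 (+3.59) encodes an AMP deaminase. Sbsn (+3.56) encodes suprabasin of stratified epithelia, Arrdc4 (+3.49) an arrestin-domain protein, and Celsr1 (+3.47) a cadherin of planar cell polarity.

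The largest fall was that of Sema3d, a secreted semaphorin that guides axons and vessels. It stood at 13.82, 15.24, 14.54 and 15.95 at 6 months and at 7.84, 7.22, 8.72 and 8.75 at 14 months (-6.75, SE 0.51, adjusted p = 2.1e-07), 108-fold lower with no overlap. Gabrb2, a subunit of the GABA-A receptor, went from 14.32, 12.83, 13.38 and 13.83 to 7.50, 8.28, 7.54 and 7.68 (-5.84, SE 0.31, adjusted p = 9.4e-10). Its values lay in a narrow range at each age. Fgl2, a fibrinogen-like protein with prothrombinase activity, fell by 5.68, and Tmem176b, a membrane protein, by 5.12. The chemokine Cxcl12 went from 12.78, 12.04, 11.53 and 12.16 to 6.79, 7.35, 6.84 and 7.57 (-4.99, SE 0.67, adjusted p = 7.4e-05). Epha3 (-4.43) is a receptor tyrosine kinase for ephrins, and Ipw (-3.89) a noncoding RNA of an imprinted locus. Slc6a12, Mt2, Dusp1, Atf3 and Pim1 complete the 12 and are taken up with their groups. None of these 24 calls was lost under any of the 27 alternatives run.

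**Figure D1:**
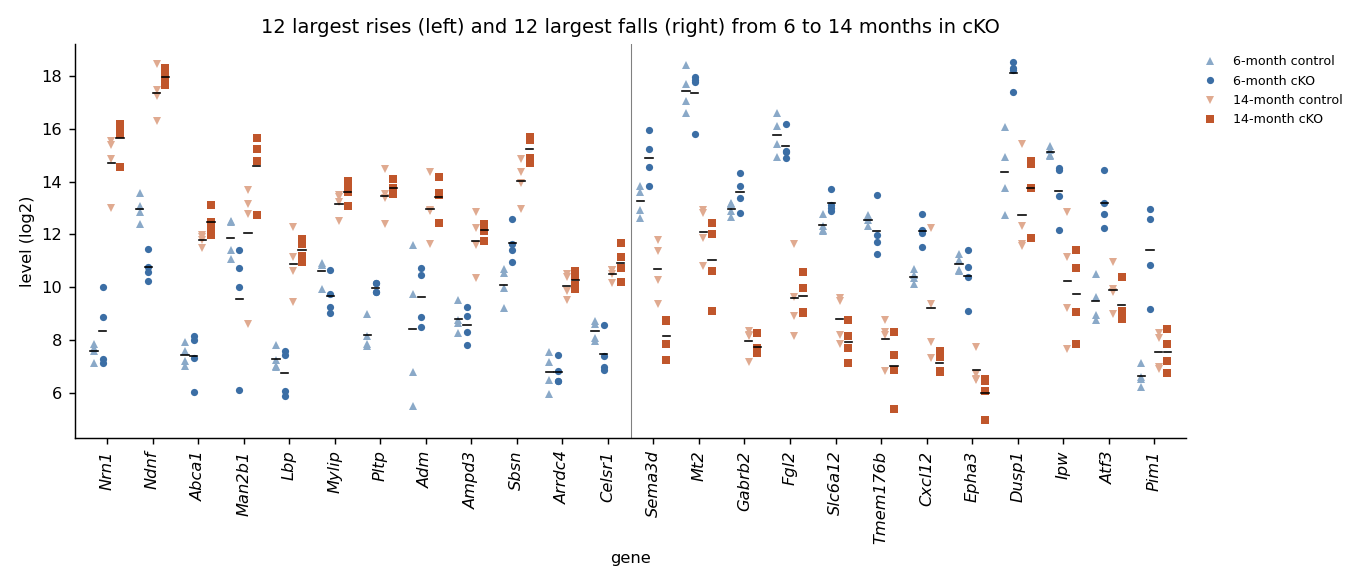
Levels (log2, vertical axis) of the 12 genes with the largest rises and the 12 with the largest falls in cKO, on all 16 arrays; symbols mark the 4 groups, 1 point per array, and short lines the group means (n = 4). The 24 genes were chosen among those whose cKO arrays of the 2 ages do not overlap, so the gap between the filled circles and squares is part of the choice; the control symbols are drawn beside them.

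Among genes that stood above the receptor level at 14 months alone, the 3 largest rises were Hox genes. Hox genes encode homeodomain factors that set position along the body axis, in 4 clusters whose higher-numbered members are used toward the tail and in the limbs; the family was taken up after these values were seen. Hoxd10 stood at 3.51, 3.63, 3.98 and 3.72 at 6 months, all below the receptor level, and at 10.44, 10.19, 11.50 and 10.74 at 14 months (adjusted p = 1.7e-11), at least 17.0-fold higher when set against the receptor level. Hoxd9 went from 4.68, 4.71, 3.84 and 3.76 to 9.56, 8.12, 9.64 and 8.49, and Hoxd8 from 5.61, 5.83, 5.40 and 5.14 to 9.98, 9.68, 9.61 and 9.87. These are rises of at least 5.0-fold and 8.91-fold. Krtdap, which is not a Hox gene, had the next largest rise, with changes from +3.57 to +4.26 under the 27 alternatives run. Hoxa10 came after it, from 5.80, 5.20, 5.13 and 5.22 to 9.56, 8.82, 9.67 and 9.0 (adjusted p = 4.5e-07). Hoxd11 went from 3.62, 4.17, 4.21 and 3.70 to 6.96, 6.11, 7.60 and 6.95. In all 5 Hox genes the ages were apart on every array. For Hoxd10, Hoxd9 and Hoxd8 this was part of the choice, and 24.9% of all probe sets did not overlap.

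Of the 33 Hox genes measured, 9 rose and 24 did not pass, against 13.4% of all probe sets that rose, and their median change was 0.14. The rises lay in cluster A (4 of 8), cluster D (4 of 7) and cluster C (1 of 9), and none of the 9 genes of cluster B passed. Hoxd12 (change 0.17) and Hoxd13 (-0.08), the neighbours of Hoxd11 in their cluster, stayed near or below the receptor level. Hoxa3 (+1.55), Hoxa5 (+1.22), Hoxa6 (+1.31) and Hoxc6 (+0.81) changed less, Hoxc6 below the receptor level at both ages; the call of Hoxa5 was lost under 9 of 27 alternatives, quantile normalization among them, that of Hoxc6 under 7, and that of Hoxa3 on male arrays alone. The control arrays gave 9 rises as well, with Hoxd10 at +6.33, though not wholly in the same genes. In control Hoxa4 and the cluster B gene Hoxb7 were called, and Hoxa5 and Hoxc6 were not. By limma no age change of the 33 genes differed between genotypes at an adjusted p of 0.05 (2 at an unadjusted p of 0.05). Since the labels do not give the spinal level of the discs, age and disc level cannot be told apart for these genes.

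**Figure D2:**
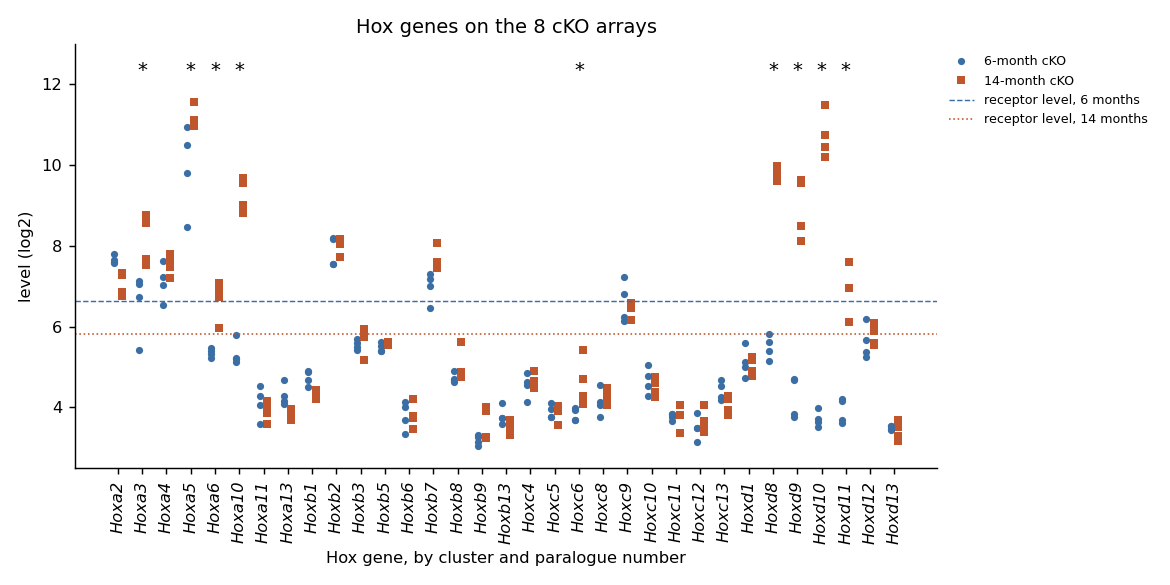
Levels (log2, vertical axis) of the 33 Hox genes on the 4 arrays of 6-month (circles) and the 4 of 14-month (squares) cKO mice, in cluster order; asterisks mark an adjusted p under 0.05 and the dashed and dotted lines the receptor levels of 6.63 and 5.83. Hoxd8 to Hoxd11 and Hoxa10 lie below the 6-month line at 6 months and above the 14-month line at 14 months, where array 2 of Hoxd11 (6.11) still lies under the 6-month line, and no gene of cluster B is marked.

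Krt18 and Shh, which mark the nucleus pulposus and notochord, fell, and most other markers did not pass. Of 17 markers, 4 fell (against 8.73% of all probe sets), 2 rose (against 13.4%) and 11 did not pass, with a median change of 0.11. Krt18, a keratin of notochordal cells, went from 15.79, 15.38, 15.84 and 15.40 to 11.37, 12.78, 12.02 and 11.37 (-3.72, SE 0.35, adjusted p = 1.8e-06), 13.2-fold lower. Krt8, the keratin that pairs with it, changed by 0.21 (adjusted p = 0.52), and Krt19, another keratin of these cells, by 0.13 (adjusted p = 0.71). Shh, the hedgehog ligand made by notochord and nucleus pulposus, went from 9.88, 9.09, 9.49 and 9.07 to 7.59, 7.68, 7.18 and 7.11 (-1.99, SE 0.26, adjusted p = 4.7e-05). Basp1 (-1.57) and the adhesion molecule Ncam1 (-1.30) also fell, and Lgals3 (+0.74) and Foxa1 (+0.98) rose, Foxa1 while below the receptor level at both ages. Car3 and Cd24a changed by 0.11 and 0.04. Scaling to one interquartile range lowered the list's median to -0.88 with 7 falls and 1 rise, and without 6-month arrays 3 and 4 there were 4 falls and no rise.

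Most of the cartilage-type matrix did not pass the test, and single collagen and basement membrane genes rose while the medians of both lists stayed near 0. Over all probe sets 13.4% rose and 8.73% fell. Of 25 cartilage matrix genes, 3 fell and 2 rose (median change -0.11): Snorc, a chondrocyte proteoglycan, fell by 3.33 (adjusted p = 1.7e-05), Hapln1, the link protein of aggrecan, by 1.66 (adjusted p = 1.2e-04) and Prelp by 1.0. Acan stood between 18.86 and 19.36 on all 8 arrays, close to the highest value of the table, 19.93, and Col2a1 changed by -0.53 (adjusted p = 0.19). Of 25 genes of fibrillar and related collagens and fibrosis, 8 rose and 2 fell (median change -0.12); 5 rose without 14-month array 3 or 6-month array 3. Thbs2, a matricellular protein, went from 7.47, 6.90, 7.33 and 7.14 to 11.18, 10.02, 10.67 and 9.43 (+3.12, SE 0.40, adjusted p = 4e-05). Col6a3 rose by 1.60, Col5a1 by 1.76 and Col1a1 by 1.04, while Col6a1 fell by 1.03 and Ccn2, the connective tissue growth factor gene, by 2.29 (adjusted p = 0.0078). After one interquartile range scaling the list gave 5 rises and 5 falls.

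Of 17 basement membrane genes 5 rose and 2 fell (median change -0.02), against 13.4% and 8.73% of all probe sets. On male arrays alone 3 rose. Hspg2, the gene of perlecan, was the clearest, from 9.59, 9.47, 9.29 and 9.35 to 11.76, 11.71, 11.50 and 11.91 (+2.29, SE 0.20, adjusted p = 1.1e-06). Agrn (+2.22) and Lamc1 (+1.66) rose with it, and the laminin chain gene Lama3 fell by 2.06 (adjusted p = 0.0014). Of 20 proteases and inhibitors, 5 rose, among them Adamts1 (+2.77, adjusted p = 0.0012) and the membrane-bound collagenase Mmp14 (+1.81, adjusted p = 0.0028), and 2 fell; 3 rose without 14-month array 2 or 3 or 6-month array 2, and 2 without 6-month array 3. Of 26 enzymes of glycosaminoglycan synthesis and sulfation, 4 rose and 2 fell, close to the 13.4% and 8.73% over all probe sets, and none fell without 14-month array 4 or without 6-month array 3 or 4; Ext1, a heparan sulfate polymerase, rose by 1.35 (adjusted p = 0.0016; 0.10 with one interquartile range). Of 12 genes of hypertrophy and mineralization, Mgp (+1.84) and Ibsp (+2.06) rose and Sp7 fell by 0.76; the call of Ibsp was lost under 15 alternatives, including the removal of any of the 8 cKO arrays, that of Mgp under 6 and that of Sp7 under 7.

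The osmotic genes split. Slc6a12, the betaine transporter induced by the osmotic factor TonEBP, stood at 12.87, 12.99, 13.72 and 13.11 at 6 months and at 7.11, 8.77, 8.13 and 7.69 at 14 months (-5.25, SE 0.38, adjusted p = 1.7e-07), 38.0-fold lower. Slc6a6, the taurine transporter, and Nfat5, which encodes TonEBP itself, rose by 1.95 (adjusted p = 0.001) and 1.08 (adjusted p = 0.0099). Of the 10 genes of this list 3 rose and 2 fell, against 13.4% and 8.73% of all probe sets. The call of Slc6a6 was lost with one interquartile range (adjusted p = 0.069).

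Of 11 HIF pathway genes 4 rose and 7 did not pass (median change 0.26), against 13.4% of all probe sets that rose. Cited2, whose product competes with HIF-α subunits for their coactivator, stood at 17.29, 16.49, 15.67 and 15.80 and then at 18.15, 18.04, 19.07 and 18.99 (+2.25, SE 0.38, adjusted p = 4.6e-04). Egln1, the main HIF prolyl hydroxylase, went from 14.61, 14.48, 14.79 and 14.83 to 16.05, 15.61, 15.99 and 15.54 (+1.12, SE 0.19, adjusted p = 5.8e-04). Both genes were higher on every 14-month array, as were 14.5% of all probe sets, and both were named because they were called. Egln2 (+0.67, adjusted p = 0.043, a call lost under 13 alternatives) and Epas1 were the other rises. Without 14-month array 1 or 3, or without 6-month array 2, 2 rises were left. After scaling to one interquartile range 1 rise was left in this list, and Egln1 (adjusted p = 0.40) was among the calls lost.

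Of 22 genes of the hypoxia response outside glycolysis, 6 rose and 2 fell (median change 0.47). Over all probe sets 13.4% rose and 8.73% fell, so the falls were near that share. Adm led, from 8.88, 8.49, 10.74 and 10.45 to 12.45, 13.58, 13.49 and 14.17 (+3.78, SE 0.95, adjusted p = 0.0085). Ddit4, an inhibitor of mTORC1 signalling, rose by 3.11 from 10.93, 7.82, 7.65 and 7.16 to 11.16, 11.99, 11.66 and 11.18; its first 6-month array lay close to the older ones, and the call was lost without 6-month arrays 3 and 4. The mitochondrial proteins Higd1a (+2.11, adjusted p = 1.2e-04) and Bnip3 (+1.90, adjusted p = 9.9e-05) rose, and Angptl4 (-1.38) and the transferrin receptor gene Tfrc (-1.03) fell; 4 fell without 6-month array 1. Vegfa changed by -0.27 and did not pass.

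Glycolytic genes moved the other way where they passed: 7 of 20 fell, against 8.73% of all probe sets, and the median change was -0.26. Slc2a3, a glucose transporter, went from 12.72, 11.48, 12.96 and 12.83 to 8.69, 9.49, 9.43 and 8.76 (-3.40, SE 0.41, adjusted p = 2.6e-05). Pfkl, the liver-type phosphofructokinase, went from 15.25, 14.57, 15.26 and 15.53 to 12.84, 12.50, 13.41 and 12.61 (-2.31, SE 0.34, adjusted p = 1.5e-04). The ages were apart in both, as in 24.9% of all probe sets, and both were picked by smallest p. Eno2 (-2.10), the platelet-type Pfkp (-1.41), Aldoc (-1.01), Hk1 (-0.62) and Aldoa (-0.52) also fell. Ldha (+0.18), Gapdh (+0.22) and Pkm (+0.06) did not pass. In this list 3 falls were left without 14-month array 4 or without arrays 3 and 4 of the 6-month group, 4 without 14-month array 1 or 6-month array 3, and 13 fell with one interquartile range.

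Subunits of oxidative phosphorylation, the respiratory chain of mitochondria, rose in part. Of 34 subunits of complex I, 16 rose and 18 did not pass (median change 0.71), and of 38 subunits of complexes II to V, 13 rose and 25 did not pass (0.54), against 13.4% of all probe sets. The 13 rises of the second list were 7 without 14-month array 4, 8 without 14-month array 3 or 6-month array 2, 7 without 6-month arrays 3 and 4, and 8 with one interquartile range, where the median was 0.13. Sdhb, the iron-sulfur subunit of complex II, went from 8.88, 8.84, 9.25 and 8.94 to 10.58, 10.93, 11.08 and 11.03 (+1.93, SE 0.19, adjusted p = 2.5e-06).
The proteasome list had the largest share of rises of the 44 lists. Of 25 subunits measured, 20 rose and 5 did not pass, against 13.4% of all probe sets, with a median change of 1.26. Psma7, an α-ring subunit of the catalytic core, went from 8.22, 7.30, 7.68 and 7.99 to 9.71, 9.57, 9.80 and 10.09 (+2.0, SE 0.27, adjusted p = 7.8e-05). Psmb7, a β-ring subunit, went from 11.58, 11.57, 11.05 and 11.31 to 12.76, 12.87, 12.83 and 12.46 (+1.35, SE 0.19, adjusted p = 1.1e-04). Psmc1, an ATPase of the regulatory cap, rose by 1.54 and Psma6 by 1.42. These 4 genes were picked by smallest p. Over the list, the ages did not overlap in 22 of the 25 subunits, against 24.9% of all probe sets. The count of rises was 17 after quantile normalization and 15 with one interquartile range.

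Of 16 genes of the unfolded protein response 8 rose and 8 did not pass (median change 0.62). Over all probe sets 13.4% rose and 8.73% fell, the shares beside which the counts of this paragraph stand. Hsp90b1, a chaperone of the endoplasmic reticulum lumen, went from 14.90, 14.61, 14.74 and 14.89 to 16.06, 15.78, 15.70 and 15.72 (+1.03, SE 0.17, adjusted p = 4e-04), and Dnajc3, a co-chaperone, rose by 1.11 (adjusted p = 4.2e-04). Quantile normalization and one interquartile range each left 3 rises, and with the latter Hsp90b1 changed by 0.21 (adjusted p = 0.57). Of 15 genes of autophagy and the lysosome 6 rose, among them the initiating kinase gene Ulk1 (+1.34), and Hexa fell by 1.05. That list gave 3 rises and 4 falls with one interquartile range, 2 rises without 14-month array 4 and 1 rise and 2 falls without 6-month array 2, so it has no settled direction. Of 19 genes of oxidative stress defence 5 rose, led by the glutathione peroxidase gene Gpx1 (+1.90, adjusted p = 7.6e-05), and 2 without 6-month arrays 3 and 4. Of 20 cytosolic ribosomal proteins 3 rose and 1 fell (median change -0.22), near the shares of all probe sets. Without 6-month array 2, 5 fell, and with one interquartile range 15 fell and 1 rose, so this list has no settled direction. Of 12 genes of the citric acid cycle 4 rose and 1 fell; 1 or 2 rose without 14-month array 1, 3 or 4 or 6-month array 2 or 3, and none passed without arrays 3 and 4 of the 6-month group. Of 16 genes of cholesterol synthesis 5 fell, led by Insig1 (-1.61, adjusted p = 0.0011) and Hsd17b7 (-1.59, adjusted p = 0.0033), and 3 rose, of which 1 was left without 14-month array 4. Of 13 genes of fatty acid oxidation and storage 2 fell, the fatty acid transporter gene Cd36 (-2.93) and Cpt1a (-1.41), and 2 rose. For so few members these counts lie near the shares of all probe sets. Of 23 genes of the amino acid response and tRNA synthetases 4 rose, led by Gars (+1.41). The serine synthesis genes Psph (-1.21) and Phgdh (-1.10) were the 2 that fell. Both counts lie near the shares of all probe sets, and 2 rose without 14-month array 2.

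Most immediate early genes, which growth factors, stress and tissue handling switch on within minutes, were lower at 14 months. Of 22 genes of this list, heat shock genes included, 15 fell and 7 did not pass, against 8.73% of all probe sets, and the median change was -1.56. The upstream sequences of Nr4a1 and Dusp1 are shown because both genes fell strongly and both carry repeated sites of the kind bound by CREB and ATF factors. Each line gives the 250 bases before the annotated start, 5′ to 3′ in the direction of the gene, from RefSeq on GRCm38.p6, chr15:101266596-101266845 on the plus strand and chr17:26508473-26508722 on the minus strand. Capitals mark each TGACG, read on both strands; the central capitals of Dusp1 hold TGACGTCA, in which overlapping matches run together.
Nr4a1: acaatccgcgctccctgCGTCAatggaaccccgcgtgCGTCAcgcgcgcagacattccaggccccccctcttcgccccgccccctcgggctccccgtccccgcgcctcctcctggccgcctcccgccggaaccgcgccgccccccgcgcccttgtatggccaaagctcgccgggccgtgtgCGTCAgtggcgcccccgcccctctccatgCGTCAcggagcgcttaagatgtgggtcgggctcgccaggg
Dusp1: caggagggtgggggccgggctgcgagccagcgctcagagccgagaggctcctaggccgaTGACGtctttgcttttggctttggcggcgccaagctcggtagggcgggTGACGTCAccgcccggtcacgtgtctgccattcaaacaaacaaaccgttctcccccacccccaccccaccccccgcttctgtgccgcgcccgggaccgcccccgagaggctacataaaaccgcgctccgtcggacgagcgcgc
TGACG occurs 4 times in the Nr4a1 window and 3 times in that of Dusp1. Of 27025 genes with such a window, 19.8% hold at least 1 TGACG and 0.777% hold 3 or more. Among the 14 falling genes of the list that have a window, 10 hold at least 1, and among the 5 members with a window that did not pass, 2 do. The count describes letters in a window and says nothing of a factor bound there.

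Dusp1, a phosphatase that inactivates MAP kinases, stood at 18.31, 17.40, 18.25 and 18.54 at 6 months and at 14.65, 11.88, 14.77 and 13.75 at 14 months (-4.36, SE 0.80, adjusted p = 9.2e-04), 20.6-fold lower. Nr4a1, an orphan nuclear receptor, went from 9.58, 11.27, 10.24 and 9.83 to 6.91, 6.39, 6.77 and 7.0 (-3.46, SE 0.37, adjusted p = 7.3e-06). Neither gene had overlapping arrays, as in 24.9% of all probe sets. For Dusp1 this was part of the choice, and Nr4a1 was named for its small p. The stress-induced factor Atf3 went from 12.26, 12.77, 13.20 and 14.46 to 9.10, 8.96, 8.81 and 10.39 (-3.86, SE 0.49, adjusted p = 4.3e-05), and the kinase gene Pim1 from 10.85, 9.19, 12.58 and 12.98 to 7.19, 6.76, 8.43 and 7.84 (-3.85, SE 0.61, adjusted p = 2.8e-04). Fos was scattered at 6 months, at 14.17, 10.56, 10.32 and 12.11, and lower at 14 months, at 9.15, 7.57, 7.94 and 9.11 (-3.35, adjusted p = 0.0036). Fosb (-2.41), Junb (-2.16), Zfp36 (-2.73), Btg2 (-1.64), Ier2 (-1.49), Errfi1 (-1.46), Ifrd1 (-1.44) and Egr2 (-0.97) fell, as did the heat shock genes Hsph1 (-2.13) and Hspa1a (-0.79). Hspa1a has a near-identical copy, Hspa1b (-0.12, not passed), and their signals may be shared. Egr1 changed by -2.0 without passing (adjusted p = 0.069) and Jun by -0.83 (adjusted p = 0.23). Without arrays 3 and 4 of the 6-month group 10 of the 15 falls were called. The labels do not state the time from death to RNA extraction, and its part in these values was not tested.

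The metallothioneins, small proteins that bind zinc and copper, fell as well. Mt2 stood at 17.95, 17.86, 15.81 and 17.76 at 6 months and at 12.45, 9.09, 10.61 and 12 at 14 months (-6.31, SE 0.65, adjusted p = 4.8e-06), 79.2-fold lower. Mt1, named after its values were seen, went from 18.80, 18.90, 18.02 and 18.91 to 16.30, 13.58, 15.73 and 15.89 (-3.28, SE 0.52, adjusted p = 3.1e-04). In both the third 6-month array was the lowest of its age and the second 14-month array the lowest of all. The 250 bases before the start of Mt2, chr8:94172368-94172617 on the plus strand (RefSeq, GRCm38.p6), are shown because they hold 3 core metal response elements, TGCACNC or TGCGCNC on either strand, in capitals.
Mt2: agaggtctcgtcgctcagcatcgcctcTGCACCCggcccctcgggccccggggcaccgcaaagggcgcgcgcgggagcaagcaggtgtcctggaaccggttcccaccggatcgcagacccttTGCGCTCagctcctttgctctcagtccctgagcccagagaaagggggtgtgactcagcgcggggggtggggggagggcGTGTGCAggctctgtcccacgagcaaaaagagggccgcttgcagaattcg
Of all genes with a window 23.8% hold at least 1 such element and 1.46% hold 3 or more. The 250 bases before the annotated Mt1 start hold 1, near their end, and bases past that start were not searched. These counts therefore do not compare the whole promoters of Mt1 and Mt2.

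**Figure D3:**
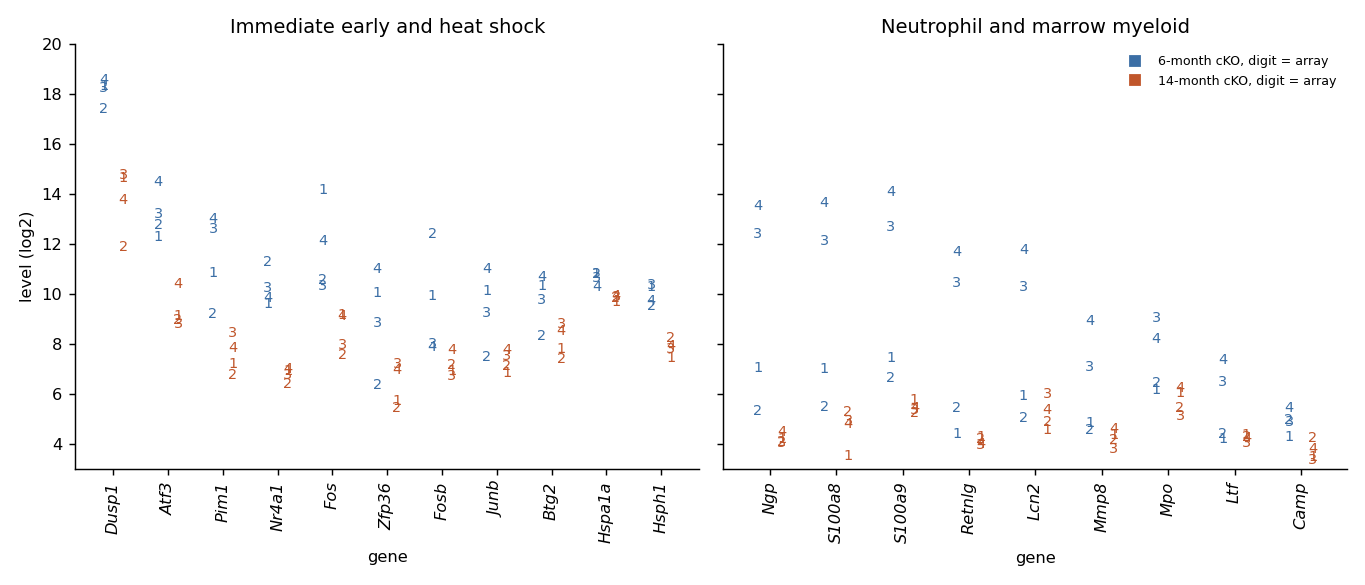
Levels (log2, vertical axis) of 11 immediate early and heat shock genes (left) and of 9 neutrophil and marrow myeloid genes (right) on the cKO arrays; each digit is the array number within its age, 6 months to the left of each pair and 14 months to the right. On the left all 4 arrays of 6 months are raised in genes such as Dusp1 and Nr4a1, and on the right arrays 3 and 4 of 6 months stand apart from the other 6.

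Neutrophil and marrow myeloid markers were also lower at 14 months, through 2 of the 4 younger arrays. Ngp, a neutrophil granule protein, stood at 7.04, 5.33, 12.41 and 13.50 at 6 months and at 4.20, 4.09, 4.04 and 4.46 at 14 months (adjusted p = 0.0047), at least 13.4-fold lower when set against the receptor level. S100a8, S100a9 and Retnlg had the same 2 high arrays, and 9 of 13 markers fell, against 8.73% of all probe sets. Without 14-month array 2 or 3 or 6-month array 3 or 4, 4 or 5 fell. Over the 13 markers the mean level was 5.30, 5.02, 8.09 and 8.74 on the 6-month arrays and 4.44 to 4.67 on the 14-month arrays, where all 13 were at or below the receptor level. Without arrays 3 and 4, 1 of the 13 was called and the median change moved from -1.77 to -0.49. Fewer cells of a type and less RNA per cell cannot be told apart in tissue RNA.

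Few markers of other cell types passed, where 22.2% of all probe sets did. Of 11 macrophage markers 1 fell, Lyz2 (-3.01, high on the same arrays 3 and 4, and not called without array 3). Of 11 lymphocyte markers 2 fell, Cd4 and Cd79b, and 1 each of 7 erythroid (Ermap), 12 endothelial (Cdh5) and 10 nerve and Schwann markers (Mbp). Cd79b, Ermap, Cdh5 and Mbp were below the receptor level at 14 months, and the calls of Cd4, Cd79b and Ermap were lost under 8, 8 and 11 alternatives. No marker of skeletal muscle (16), fat cells (8) or osteoclasts (9) passed in limma, and at an unadjusted p of 0.05 the counts were 0, 3 and 0. At 14 months 12, 7 and 8 of these were at or below the receptor level. So were 11 of 12 endothelial and 10 of 11 lymphocyte markers. For markers at that level a missing call is no measure of the cells. Of 10 osteoblast and osteocyte markers Ibsp and Col1a1 rose and Sp7 fell. Of 8 annulus and tendon markers Col1a1 rose, and the list's mean level ran from 7.29 to 7.52 at 6 months and from 7.32 to 7.47 at 14 months.

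Of 23 genes of NF-kB signalling and inflammation 8 fell and 2 rose (median change -0.42), against 8.73% and 13.4% of all probe sets. With one interquartile range 5 fell and none rose. Ptgs2, the inducible cyclooxygenase, went from 7.31, 9.72, 8.97 and 8.17 to 7.17, 6.88, 6.71 and 6.91 (-1.62, SE 0.38, adjusted p = 0.0059). Il1b fell by 1.55, from 6.58, 6.11, 7.82 and 8.75, highest on the arrays with neutrophil transcripts, to 5.79, 6.15, 5.11 and 6.0; the ages overlapped, and the part of those cells was not tested. Of the falling chemokine genes, Cxcl2, Ccl5, Ccl2 and Ccl3 averaged below the receptor level at both ages and Ccl4 (-0.96) above it. Rela, a subunit of NF-kB, rose by 1.11 (adjusted p = 2.8e-04; 0.37 with one interquartile range), and Il1r1 by 1.29.

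Interferon-response genes rose in part, 6 of 21 against 13.4% of all probe sets, with 15 not passing (median change 0.41). Ifit3 went from 9.51, 9.56, 9.79 and 10.70 to 12.64, 11.30, 12.63 and 11.82 (+2.21, SE 0.36, adjusted p = 3.5e-04), and Bst2, an antiviral tether, from 7.25, 6.48, 6.50 and 7.61 to 8.61, 8.96, 9.95 and 8.75 (+2.11, adjusted p = 9.3e-04). Both were higher on every older array, as were 14.5% of all probe sets, and both were picked by smallest p. Stat2 (+0.96) and Irf9 (+1.13), parts of the factor that interferon activates, rose too. Quantile normalization and one interquartile range each left 6 rises, and without 6-month cKO arrays 3 and 4 there were 4 rises and 1 fall. Of 18 genes of antigen presentation and complement 3 rose, near the 13.4% of all probe sets. They were the peptide transporter gene Tap1 (+0.95), the immunoproteasome gene Psmb8 (+1.14) and Cfb (+0.64, a call lost under 8 alternatives). Without 6-month arrays 3 and 4, 1 rise was left.

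Of 21 genes of senescence and its secreted factors, 2 rose and 4 fell, against 13.4% and 8.73% of all probe sets. Rises were thus no more frequent than over all probe sets. Cdkn1a, which encodes the cell cycle inhibitor p21, went from 10.72, 10.20, 11.59 and 10.48 to 13.56, 14.59, 12.95 and 13.71 (+2.96, SE 0.45, adjusted p = 2.2e-04), 7.75-fold higher with no overlap. It was picked by smallest p, and 14.5% of all probe sets were higher without overlap. Igfbp5, an IGF-binding protein, stood at 5.68, 5.29, 5.13 and 5.21, below the receptor level, and then at 8.68, 7.76, 8.15 and 8.5 (adjusted p = 2.2e-06), at least 3.12-fold higher. Cdkn2a stayed below that level at both ages (change 0.50, adjusted p = 0.16), and the 4 falls were Il1b, Igfbp6, Cxcl2 and Ccl2. Among 21 cell cycle genes, Ccnd2 (cyclin D2) fell by 2.60 (adjusted p = 8.4e-05), Mcm2 fell by 0.73 (a call lost under 9 alternatives) and Cdk4 rose by 1.20.

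In BMP and TGF-β signalling 8 of 35 rose and 5 fell, against 13.4% and 8.73% of all probe sets. The balance moved with the settings: 5 rose and 5 fell under quantile normalization, 3 and 5 with one interquartile range, and 5 and 4 without 14-month array 2 or 3. The Id genes, direct targets of BMP signalling whose products block basic helix-loop-helix factors, fell together: Id1 went from 13.61, 13.22, 14.32 and 13.89 to 10.01, 10.56, 11.18 and 10.42 (-3.22, SE 0.33, adjusted p = 4.2e-06), Id2 fell by 2.91 (adjusted p = 2.6e-04) and Id3 by 2.42 (adjusted p = 3.8e-04). Grem1, a secreted BMP antagonist, went from 6.30, 4.62, 5.84 and 5.13, below the receptor level, to 7.91, 9.06, 9.81 and 8.17 (adjusted p = 2.8e-04), at least 4.31-fold higher. The receptor genes Bmpr2 (+1.45), Tgfbr1 (+1.32) and Tgfbr3 (+1.01) and the ligand genes Tgfb2 (+1.07) and Tgfb3 (+1.01) rose. None of the BMP ligands on the list (Bmp2 to Bmp7) passed, with changes from -0.49 to 0.16.

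In Wnt signalling 4 of 30 rose and 4 fell, rises being as frequent as over all probe sets (13.4%), and 2 fell under quantile normalization, without 14-month array 3 or 4, or without 6-month array 2 or 3. The receptors Fzd2 (+1.87), Fzd8 (+1.53), Lrp6 (+1.46) and Lrp5 (+0.71) made up the rises, and the inhibitors Sfrp5 (-2.55) and Dkk3 (-2.12) led the falls. Of 12 hedgehog genes, the ligand Shh fell, as above, and Gli3 (+1.06, a call lost under 5 alternatives) and the inhibitor Sufu (+1.16) rose. Of 20 genes of FGF and IGF signalling 4 rose, led by the receptor gene Fgfr1, from 7.19, 6.94, 7.12 and 6.74 to 9.81, 9.36, 9.70 and 9.24 (+2.53, SE 0.25, adjusted p = 3.2e-06); 1 rose with one interquartile range and 7 without 6-month array 1.

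Of 18 circadian clock genes 9 passed, 4 rising and 5 falling (median change -0.17), against 13.4% and 8.73% of all probe sets. Without 14-month array 2 or 6-month array 2 there were 3 falls. Per3, a repressor of the clock, went from 6.95, 7.23, 8.12 and 8.41 to 10.84, 10.06, 10.69 and 11.10 (+3.0, SE 0.31, adjusted p = 4.1e-06). The output factor genes Hlf (+2.37) and Dbp (+1.86) and the repressor gene Cry1 (+0.97) rose with it. Npas2, a partner of BMAL1, went from 11.50, 8.96, 9.70 and 10.43 to 6.04, 6.56, 7.35 and 6.03 (-3.65, SE 0.45, adjusted p = 3e-05), and Nr1d1 (-1.79), Bhlhe41 (-1.10), Nfil3 (-1.01) and Per1 (-0.88) fell. Clock itself changed by -0.13 and Arntl by -0.43. The labels do not state the hour of tissue collection, and its part was not tested.

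**Figure D4:**
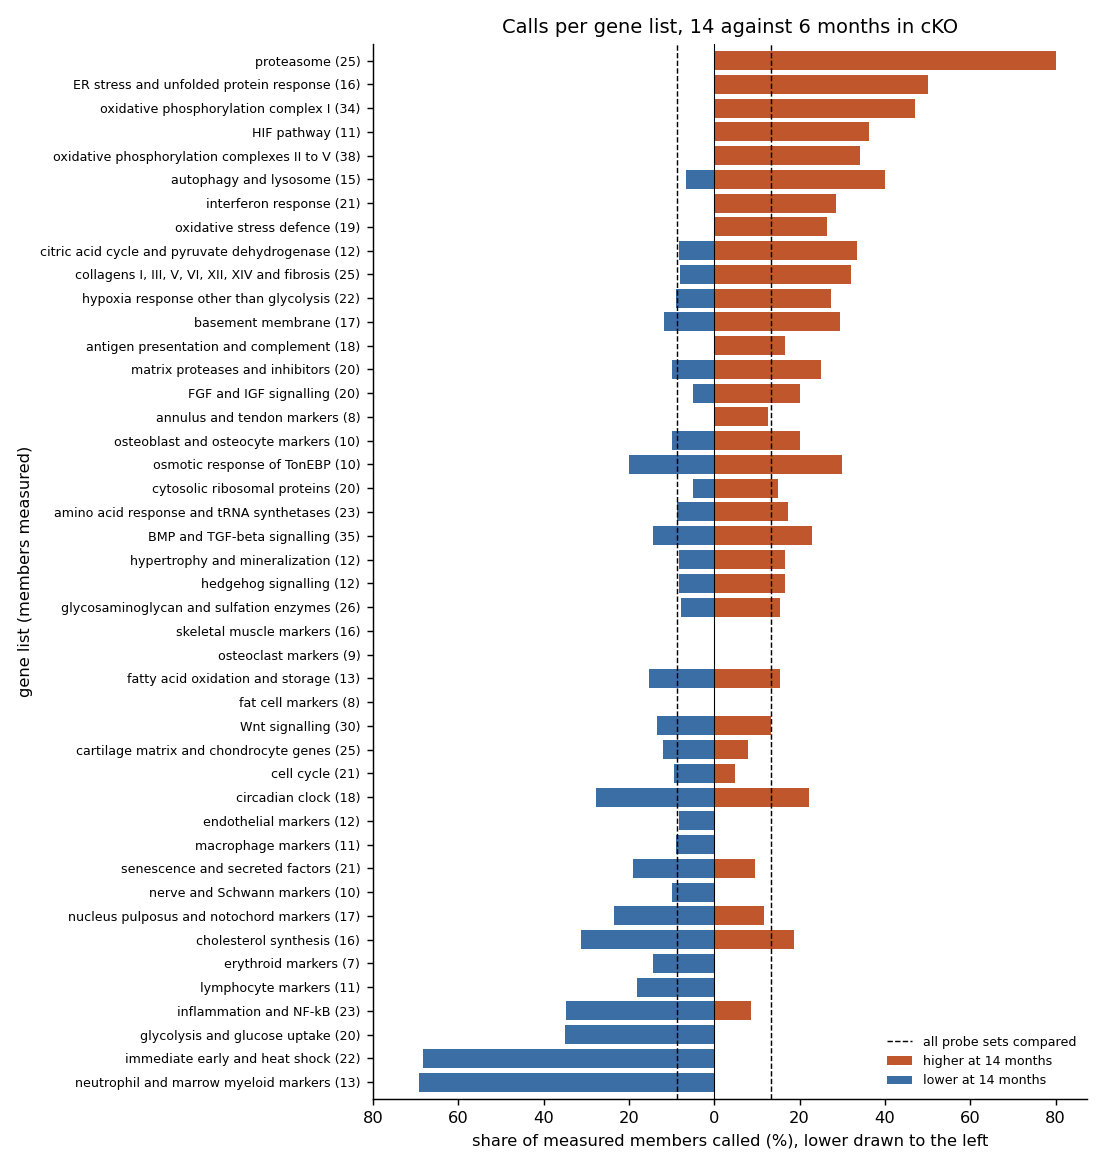
Share of the measured members of each of the 44 gene lists that passed an adjusted p of 0.05 in cKO (horizontal axis, percent), higher at 14 months to the right and lower to the left; the numbers in brackets are members measured and the dashed lines are the shares over all probe sets compared, 13.4% higher and 8.73% lower. The proteasome lies at the top with 20 of 25 members higher, and neutrophil markers (9 of 13) and immediate early genes (15 of 22) at the bottom.

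The control mice, on 8 arrays of their own, were used to see which of these changes were also called without the deletion. In controls 6265 probe sets passed (33.4%), 3360 higher (17.9%) and 2905 lower (15.5%). Of the 2516 rises in cKO, 1848 (73.4%) were also called higher in control, which is 55.0% of the control rises. Of the 1636 falls, 988 (60.4%) were also called lower, which is 34.0% of the control falls. Of the 4152 cKO calls 96.1% had the same sign in control, and across probe sets, which are not independent replicates, the changes correlated at 0.78. The knockout rises of Nrn1, Abca1 and Pltp were paralleled by control changes of +7.13, +4.36 and +5.26, and the falls of Gabrb2, Fgl2 and Mt2 by -5.02, -6.20 and -5.34. In all, 15 probe sets were called in opposite directions, among them Dbp, Lama3 and Errfi1.

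The difference between the age changes was tested directly, and 17 probe sets (0.0908%) passed, 16 with the lower change in cKO. Nr4a1 was the first of them: it fell by 3.46 in cKO and changed by 0.53 in control, a difference of -4.0 (adjusted p = 0.0083). Atf3 (-4.31, adjusted p = 0.026), Pim1 (-4.78, adjusted p = 0.041), Ifrd1 (-3.45, adjusted p = 0.0083), Gadd45g (-3.56), Klf10 (-2.86), Pde4b (-3.81), Hspa1a (-2.07) and Tuba4a (-2.66) differed in the same direction. Klf10 is a case where the change in cKO itself did not pass (-0.13, adjusted p = 0.81) while control rose by 2.73. Of the immediate early and heat shock list, whose median control change was 0.32 with 6 rises and 3 falls, 5 genes were among the 17.

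Hk2, a hexokinase, did not pass in cKO (-0.39) and rose by 2.37 in control, a difference of -2.76 (adjusted p = 0.041). The glucose transporter gene Slc2a1 is among the 17, but at 14 months it stood at 19.79 to 19.81 in cKO and at 19.65 to 19.81 in control, close to the highest value of the table, 19.93, so the size of its change cannot be read in either genotype. Over the 20 glycolytic genes the median control change was 0.52 with 8 rises and 2 falls. In cKO it was -0.26 with 0 rises and 7 falls, and for the other 18 genes the difference did not pass. Egln1 rose in both, by 1.12 in cKO and by 2.62 in control (difference -1.51, adjusted p = 0.043). Sema3d fell in both, by 6.75 and by 2.55 (difference -4.21, adjusted p = 0.035). Ndnf was the gene with the larger rise in cKO, 7.20 against 4.40 (difference 2.80, adjusted p = 0.046). The number of differences depended on the arrays: it was 105 without 6-month cKO array 1, 2 to 5 without any 14-month cKO array or without 6-month cKO array 3 or 4, 2 and 5 without 6-month control arrays 3 and 1, and 10 and 9 without 14-month control arrays 3 and 4. By Y-linked genes the control groups held 0 male arrays at 6 months and 1 at 14 months, and with sex as a covariate 19 differences passed.

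**Figure D5:**
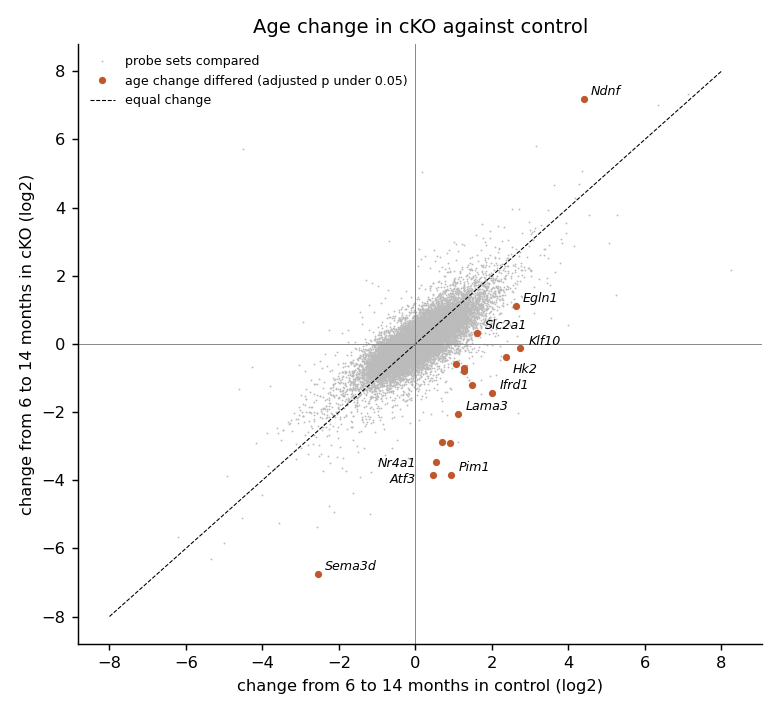
Change from 6 to 14 months (log2) in cKO (vertical axis) against the change in control (horizontal axis); grey points are the 18732 probe sets, larger points the 17 whose change differed between genotypes at an adjusted p under 0.05, some of them named, and the dashed line marks equal change. Of these 17, 16 lie below the line and Ndnf above it.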

How the data were processed

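The study hybridised biotin-labelled total RNA to Affymetrix microarrays by the standard protocol, per the labels. The authors deposited 1 log2 value per probe set and array (16 arrays, 22206 probe sets, none missing), with a normalization not given in the sources used here, and they were used as deposited. Genes come from the platform annotation: 19572 probe sets have 1 symbol, 0 several and 2634 none, and 840 on chromosomes X and Y were left out. limma 3.58.1 (R 4.3.3) fitted 4 group means on all 16 arrays, with the contrasts 14 minus 6 months in cKO, in control, and their difference, adjusted by Benjamini-Hochberg over all 22206 probe sets; a call is an adjusted p under 0.05. The fit was tested on simulated data. The number of arrays limits the precision.

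Named genes were Epas1, Hif1a, the 12 largest rises and falls that were called, did not overlap and lay above the 90th percentile of receptor probe sets at both ages, the 4 largest of each kind above it at one age, up to 4 called members of smallest p per list, further members needed to describe a list, and 8 genes whose age change differed most clearly. The members and the 44 lists were chosen with earlier results of these data known, and the Hox family after its values were seen. Replicate numbers did not pair the arrays: same-numbered cKO arrays correlated in their deviations at -0.26, 0.27, -0.28 and 0.06. Alternatives covered normalization, dim probe sets, array weights, the prior, sex, batches of arrays left out and thresholds.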

Additional observations from a re-analysis of the deposited data

Results flagged for a closer look

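Of 348 groups of 4 arrays tested for a value far from the other 3, 11 stood out. Chance gives about 1 in 20, so no more stood out than that rate would give. In the 6-month cKO group these were Hif1a on array 1 (13.04, the others 14.38 to 14.45), Mt2 on array 3 (15.81, the others 17.76 to 17.95), Bnip3 on array 2 (13.37, the others 14.37 to 14.43), Slc2a3 on array 2 (11.48), Uqcrb on array 1 (17.03), Igfbp6 on array 1 (9.04), Mbp on array 1 (7.56) and Hoxa10 on array 1 (5.80). In the 14-month cKO group they were Rela on array 1 (15.14, the others 15.51 to 15.56), Rpl27 on array 3 (10.35) and Psmc1 on array 3 (10.45).

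The age change differed between cKO and control for 17 genes, given here as the change in cKO minus the change in control. Lower changes in cKO were found for Pim1 (-4.78), Atf3 (-4.31), Sema3d (-4.21), Nr4a1 (-4.0), Pde4b (-3.81), Gadd45g (-3.56), Ifrd1 (-3.45), Lama3 (-3.18), Klf10 (-2.86), Hk2 (-2.76), Tuba4a (-2.66), Hspa1a (-2.07), Fam162a (-1.99), Klhl21 (-1.67), Egln1 (-1.51) and Slc2a1 (-1.29, a size that cannot be read because its 14-month levels lie near the highest value of the table). The higher change in cKO was that of Ndnf (2.80). All rest on a test of the difference itself at an adjusted p of 0.05.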

How the results depend on the processing

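The count of 4152 probe sets called between the ages in cKO moved when 1 cKO array was left out. It lay between 2764 (without 14-month cKO array 3) and 4394 (without 6-month cKO array 1). When 1 control array was left out, it lay between 3937 and 4284. It was 3280 after quantile normalization, of which 2937 were shared, 3312 with one interquartile range, 2801 without 6-month cKO arrays 3 and 4, 3189 on male arrays, 1932 at an adjusted p of 0.01, and 2216 with a change over 1 log2 unit. With the replicate number as a block it was 3918, and the count of differences between genotypes was 15; the numbers do not pair the arrays. The count of 17 differences ranged from 2 to 105 without 1 cKO array (2 without 14-month cKO array 1, or 6-month cKO array 3 or 4; 3 without 14-month cKO array 3; 5 without 14-month cKO array 2 or 4; 105 without 6-month cKO array 1) and from 2 to 21 without 1 control array (2 without 6-month control array 3, 5 without 6-month control array 1, 9 and 10 without 14-month control arrays 4 and 3). It was 41 with array weights, 3 without 6-month cKO arrays 3 and 4, and 2 at an adjusted p of 0.01. Of 172 named calls, 140 kept direction and call with one interquartile range, 158 after quantile normalization, 171 with sex as a covariate, and 135 without 6-month cKO arrays 3 and 4. These 172 calls do not cover every gene named in the text, so the losses given here are not a full list. Calls lost with one interquartile range included Ccl5, Cd79b, Cdh5, Egln1, Egln2, Epas1, Ermap, Ext1, Hoxa5, Hsp90b1, Mcm2, Mgp, Rela, Slc6a6, Sp7 and Uqcrb. Under quantile normalization they included Cd79b, Egln2, Epas1, Ermap, Hoxa5 and Sp7. Leaving out 1 array also ended the calls of Aldoc (14-month array 4), Hexa (14-month array 1 or 6-month array 4), Hspa1a (14-month array 1 or 3, 6-month array 2 or 3), Retnlg (6-month array 3) and Ulk1 (14-month array 4 or 6-month array 2). The direction reversed for Hif1a with one interquartile range (-0.49) and, leaving out 1 array at a time, at the low end of its range of -0.13 to 0.37; for Klf10 with a median shift (0.0025), without 6-month cKO arrays 3 and 4 (0.30), and at the high end of its leave-one-out range of -0.46 to 0.082; and for Rpl32 with one interquartile range (-0.19). The causes were not tested. The control arrays left out were chosen after seeing the data.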

Other observations

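Genes with large but unstable values fell outside the named sets and were chosen after their values were seen. Inmt, which encodes an indolethylamine methyltransferase, changed by +5.72 in cKO (adjusted p = 0.10) and by -4.52 in control, and the difference of 10.24 did not pass (adjusted p = 0.35). Serpina3n, an acute-phase serine protease inhibitor gene, changed by +2.16 in cKO (adjusted p = 0.46) and by +8.26 in control, and that difference did not pass either (adjusted p = 0.53).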
